A study of Rattus norvegicus with 24 samples.

Results

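The proteasome subunit genes were described across all 24 arrays of a rat study of collagen-induced arthritis. They were the genes whose symbol starts with Psma, Psmb, Psmc, Psmd or Psme and that have a probe set annotated to 1 gene only, and each gene was read on its brightest such probe set by mean. There were 41 such genes, called members here, of 14217 genes with a probe set of 1 symbol. Of these, 5 code for immunoproteasome parts (Psmb8, Psmb9, Psmb10, Psme1 and Psme2) and 36 are the other members. The label did not hold for 5 of the 36. Psmc3ip and Psme3ip1 carry a matching symbol but code for interacting proteins, and Psmd5, Psmd9 and Psmd10 are chaperones of 19S assembly. Psmb6 and Psme3 have only probe sets that also carry other gene symbols and are not members.

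RNA of blood mononuclear cells, isolated on a Ficoll gradient from female Wistar rats, was hybridised to an Affymetrix expression array of the rat genome. The 24 arrays fell into 12 groups of 2, each array from a separate rat that was killed at sampling, so no rat was followed over time. Healthy rats (NOCIA, NORA in the labels) were sampled at baseline, 1h and 34d. Rats with arthritis (CIA, RA in the labels), induced by bovine type II collagen in Freund's adjuvant with a booster, were sampled at baseline. They were also sampled at 1h and 34d of needle mechanical stimulation (MS, AP in the labels), methotrexate (MTX), saline injection (PLA) or isoflurane anaesthesia at sampling in place of ether with no other therapy (ANE). All rats were shaved. The sources used here give no ages.

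The proteasome degrades proteins tagged with ubiquitin. Its 20S core is a barrel of alpha and beta rings whose catalytic sites are Psmb5, Psmb6 and Psmb7, and the 19S cap, with ATPase subunits (Psmc) and non-ATPase subunits (Psmd), binds, unfolds and feeds in the substrate. Interferon gamma makes cells replace the catalytic subunits with Psmb8, Psmb9 and Psmb10 and add the PA28 cap of Psme1 and Psme2, which favours peptides for MHC class I. Lymphocytes and other blood leukocytes carry much immunoproteasome without stimulation.

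The stretch of 250 bases before the start of the gene is shown for 4 immunoproteasome genes and for Psmb5, as examples with and without motif matches. Psmb8, which is not printed, had no match to either motif. The part of promoter letters in the levels below was not tested. The sequences are RefSeq's for the GRCr8 assembly, read along the strand of the gene. Capitals mark GAAANNGAA, from the core of the interferon-stimulated response element that IRF factors bind, and in Psmb5 TGACNNNGC, the core of the antioxidant response element. Psmb10 lies at chr19:50743293-50743542 (minus strand), Psme2 at chr15:33052752-33053001 (minus), Psme1 at chr15:33038721-33038970 (plus), Psmb9 at chr20:4668750-4668999 (plus) and Psmb5 at chr15:32047380-32047629 (minus).
Psmb10: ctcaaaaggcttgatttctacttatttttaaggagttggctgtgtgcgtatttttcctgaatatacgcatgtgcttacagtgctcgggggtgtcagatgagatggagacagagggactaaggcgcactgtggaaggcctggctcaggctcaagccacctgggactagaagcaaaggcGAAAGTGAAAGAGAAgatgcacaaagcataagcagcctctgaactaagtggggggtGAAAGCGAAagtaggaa
Psme2: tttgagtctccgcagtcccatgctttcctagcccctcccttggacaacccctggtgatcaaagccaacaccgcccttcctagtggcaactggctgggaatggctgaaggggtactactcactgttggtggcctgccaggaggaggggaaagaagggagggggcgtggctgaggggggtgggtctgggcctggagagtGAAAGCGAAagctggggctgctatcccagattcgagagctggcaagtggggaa
Psme1: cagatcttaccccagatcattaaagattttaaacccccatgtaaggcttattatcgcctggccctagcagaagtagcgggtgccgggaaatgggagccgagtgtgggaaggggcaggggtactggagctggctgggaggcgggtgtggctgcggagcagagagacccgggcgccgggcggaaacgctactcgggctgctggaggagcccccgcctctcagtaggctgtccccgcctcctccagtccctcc
Psmb9: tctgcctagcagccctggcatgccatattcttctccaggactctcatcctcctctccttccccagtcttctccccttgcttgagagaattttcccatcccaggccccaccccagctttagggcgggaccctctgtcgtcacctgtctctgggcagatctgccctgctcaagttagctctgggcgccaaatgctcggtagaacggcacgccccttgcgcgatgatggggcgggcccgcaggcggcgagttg
Psmb5: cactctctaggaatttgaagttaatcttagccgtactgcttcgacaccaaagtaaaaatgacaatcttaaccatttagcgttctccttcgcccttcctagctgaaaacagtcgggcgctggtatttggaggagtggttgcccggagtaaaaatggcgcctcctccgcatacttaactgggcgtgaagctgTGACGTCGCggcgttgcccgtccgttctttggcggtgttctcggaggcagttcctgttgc

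Of the 41 members, 37 had a promoter in the RefSeq table, and both motifs were searched on both strands. GAAANNGAA stood in 7 of the 37 (Psmb10, Psme2, Psma4, Psmb2, Psmb3, Psmd7 and Psmd11) against 8.12% of 33469 rat promoters. Psmb10 had 3 matches, which start 73, 67 and 17 bases before the gene and of which the first pair overlap, and Psme2 had 1, which starts 53 bases before it. TGACNNNGC stood in 6 of the 37 (Psma3, Psmb2, Psmb5, Psmd1, Psmd9 and Psme4) against 10.1%, and in none of the 5 immunoproteasome promoters. A match is a run of letters and was not tested as a binding site, and matches of different motifs do not overlap in the sequences printed here.

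All values are log2 levels as deposited, and each change is a difference of group means with its standard error (SE) from limma, fitted on the 20690 probe sets that passed a filter on low values. All 41 members passed. A gene counts as called where its p, adjusted by the Benjamini-Hochberg method over the probe sets of that comparison, is under 0.05. With 2 arrays against 2, an exact two-sided permutation test of a single gene cannot go below p = 0.333, so the p-values use 1 spread per gene estimated across the 12 groups. Fewer cells of a type and less RNA per cell cannot be told apart in these bulk samples.

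Markers of the labelled cells were above the array median in all 24 arrays. The log2 level of the T cell gene Cd3e ran from 9.74 to 11.97, and that of the B cell gene Cd79b from 7.28 to 10.16. The liver gene Alb, a marker of another tissue, was above the array median in 16 of 24 arrays and reached 11.33. The arrays differed most within MS 1h, MS 34d, ANE 1h and PLA 1h, and in each of these groups the array farther from the median array was left out in 1 alternative, as the 4 arrays that stood apart. Replicate 1 of MS 34d had a standard deviation of 0.95 from the median array over all tested probe sets. The same distance was 0.71 in replicate 1 of MS 1h, 0.58 in replicate 1 of ANE 1h and 0.43 in replicate 2 of PLA 1h, against 0.23 to 0.45 in the other 20 arrays, among which replicate 1 of NOCIA 34d was farthest and farther than that of PLA 1h. Calls that rest on these arrays are given with and without them.

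In healthy rats, the immunoproteasome genes were lower at 34 days, while 3 genes of the 19S cap and its assembly were higher. All 5 immunoproteasome genes were below their baseline values in both arrays at 34d, as were 34.3% of all probe sets. Psmb9, Psme2 and Psmb10 were 2.02-fold, 1.90-fold and 1.68-fold lower on average, while Psme1 was lower only narrowly (12.4798 against 12.4808 in the closest arrays). At NOCIA 1h Psmb9 was 11.28 and 10.02, Psme2 11.19 and 10.16, and Psmb10 10.52 and 9.82, so replicate 2 there was near the 34d levels and replicate 1 was not. None of the 5 was called. Psmc6, Psmd12 and Psmd9 rose and Psme3ip1 fell. No other member was called, and 12% of all probe sets were called in this comparison, 6.31% higher and 5.66% lower. The members were thus called at about the background rate.

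Psmb9, the interferon-induced catalytic subunit that replaces Psmb6, was 10.89 and 10.87 at NOCIA baseline and 9.78 and 9.95 at NOCIA 34d. The 34d arrays were below both baseline arrays, by 1.01 (SE 0.42, unadjusted p = 0.0288 and adjusted p = 0.143 in limma's fit). Psme2, the beta chain of the PA28 cap, was 11.02 and 10.90 at baseline and 9.93 and 10.15 at 34d, a change of -0.92 (SE 0.38, adjusted p = 0.141 in limma). These 2 genes had the lowest changes of all 41 members in this comparison.

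Psmb10, which replaces Psmb7, was 10.43 and 10.44 at baseline and 9.54 and 9.83 at 34d, a change of -0.75 (SE 0.34, adjusted p = 0.181 in limma). Psmb8, which replaces Psmb5, was 11.43 and 11.52 at baseline and 10.81 and 11.15 at 34d, with a change of -0.50 (SE 0.44, adjusted p = 0.591 in limma). The groups did not overlap for either gene. Psme1, the alpha chain of PA28, whose gene lies close to that of Psme2 on chromosome 15, was 12.58 and 12.48 at baseline and 12.48 in both 34d arrays. Its change was -0.05 (SE 0.38), against -0.92 for its partner Psme2, and the difference between the 2 genes was not tested.

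Of the 5 immunoproteasome genes, 3 had an unadjusted p under 0.05, all lower, where 12.4% of all probe sets did. The arrays did not overlap, with 34d lower, for 5 of 5, Psme1 only narrowly, where this held for 34.3% of all probe sets. The median change of the 5 was -0.75, of the 36 other members 0.09, and of all probe sets tested -0.02. The constitutive counterparts had other values. Psmb5 was 10.83 and 10.72 at baseline and 10.73 and 10.64 at 34d (change -0.09, SE 0.26), which overlap, and Psmb7 was 8.31 and 8.51 against 8.88 and 8.76 (change 0.41, SE 0.23, adjusted p = 0.316 in limma).

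**Figure D1:**
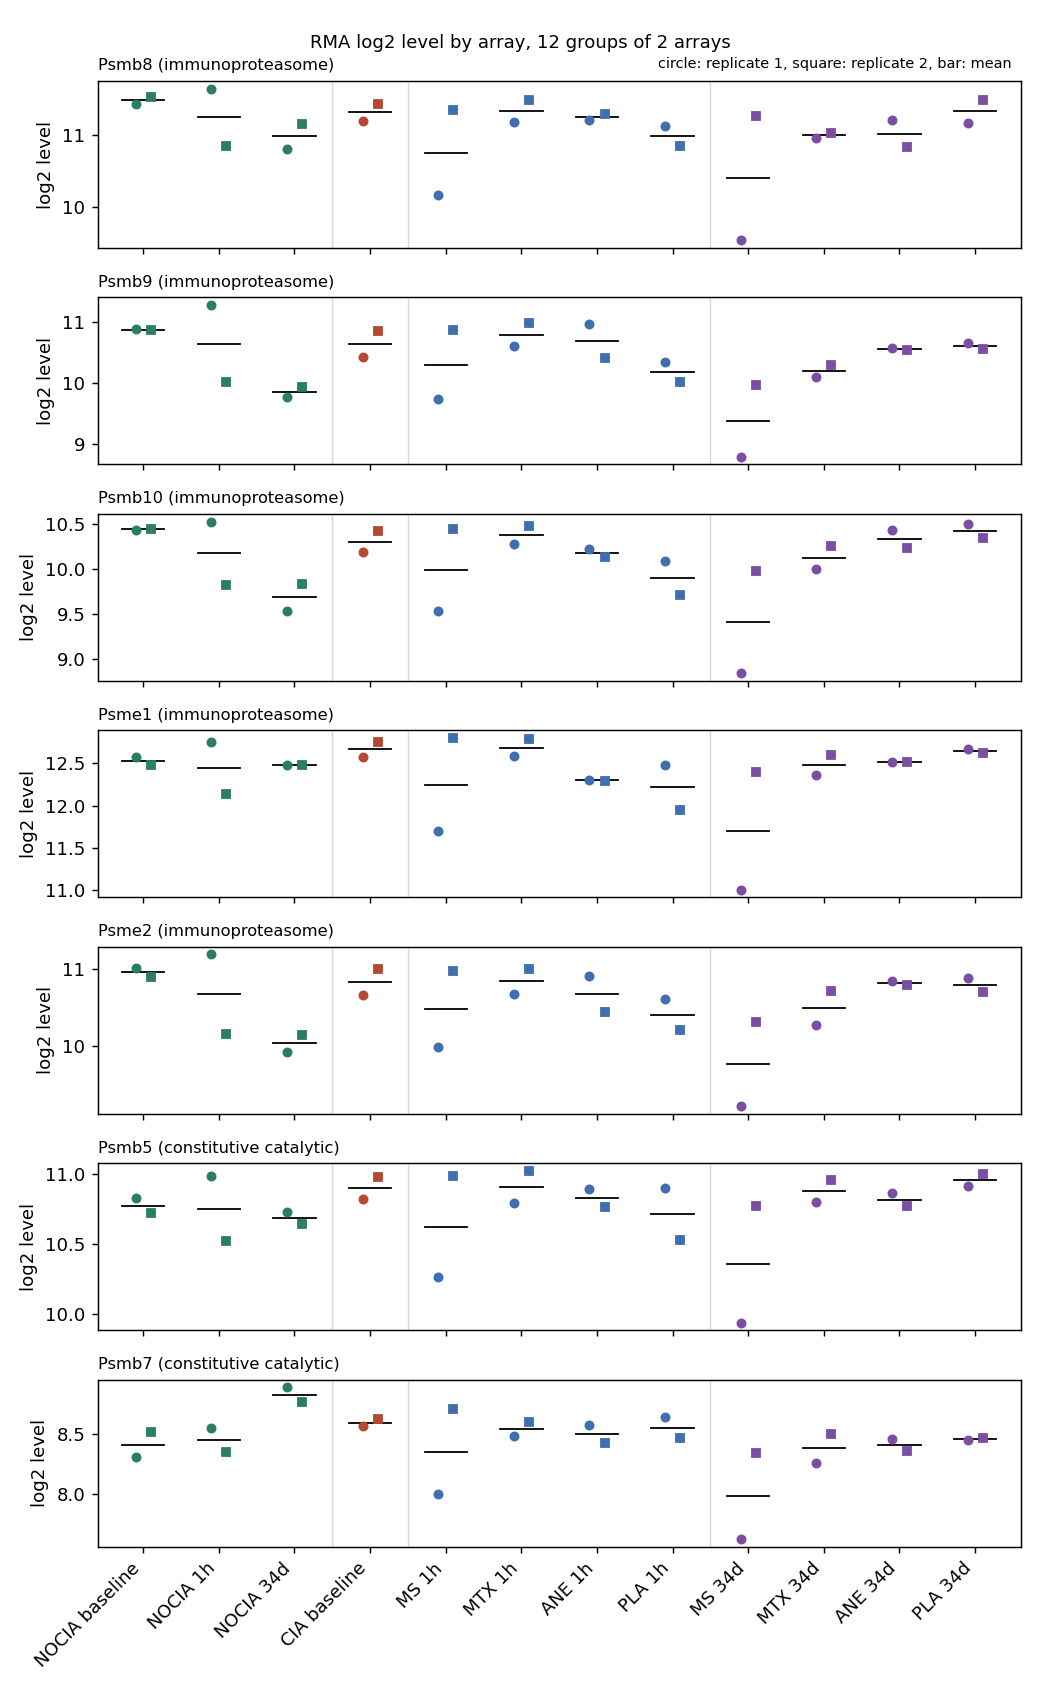
Log2 level of the 5 immunoproteasome genes and of Psmb5 and Psmb7 in each of the 24 arrays (circle, replicate 1; square, replicate 2; bar, mean of the 2 arrays), with each panel on its own axis. Psmb9, Psmb10 and Psme2 lie below the baseline arrays at NOCIA 34d, and replicate 1 of MS 34d is the lowest array in all 7 panels.

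Over all members, 3 of 41 rose and 1 fell between NOCIA baseline and 34d. Of all probe sets 12% were called, 6.31% higher and 5.66% lower, so the members were called at about the background rate. With an unadjusted p under 0.05 there were 5 members higher and 5 lower, against 24.3% of all probe sets, 11.9% of them higher. Psmc6, an ATPase of the ring at the base of the 19S cap, was 8.26 and 8.17 at baseline and 9.14 and 9.07 at 34d. It rose by 0.89 (SE 0.21, adjusted p = 0.0107 in limma), which is 1.86-fold. Its 2 other probe sets gave 0.63 (adjusted p = 0.0512) and 1.36 (adjusted p = 0.00313).

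Psmd9, a chaperone that helps to assemble the ATPase ring, was 7.90 and 7.83 at baseline and 8.87 and 8.66 at 34d, and rose by 0.90 (SE 0.19, adjusted p = 0.00553 in limma). Psmd12, a scaffold subunit of the 19S lid, was 7.60 and 7.59 at baseline and 8.70 and 8.52 at 34d, and rose by 1.02 (SE 0.30, adjusted p = 0.0352 in limma), which is 2.02-fold. In all 3 genes both 34d arrays were above both baseline arrays. These are the arrays that gave the calls, so this is no separate support. The share of all probe sets higher in this way was not computed. Psme3ip1, an interaction partner of the PA28 gamma activator, was 8.97 and 9.03 at baseline and 8.34 and 8.40 at 34d, and fell by 0.63 (SE 0.16, adjusted p = 0.0165 in limma).

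By role, the 6 ATPases ran from -0.22 for Psmc5 to 0.89 for Psmc6, with 1 called, 5 of 6 above 0 and a median of 0.44. Psmc1 (0.61, adjusted p = 0.187) and Psmc2 (0.66, adjusted p = 0.151) had an unadjusted p under 0.05 in limma and were not called. The 11 non-ATPase subunits ran from -0.46 for Psmd7 to 1.02 for Psmd12 around a median of 0.08, and among the 3 assembly chaperones Psmd10 was lowest at -0.47. A second, dimmer probe set of Psmd7 gave 0.47. The 7 alpha subunits ran from -0.39 for Psma5 to 0.36 for Psma2 and the 4 beta subunits without a catalytic site from -0.55 for Psmb3 to 0.45 for Psmb2, with none called. The activator Psme4 stood at 0.08 and the interacting protein Psmc3ip at -0.43, neither of them called.

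These calls depended on single arrays and on how the spread was pooled. Without any 1 of the 4 arrays compared, 0 or 1 member was called. Psmd9 was the 1 called without replicate 1 of NOCIA baseline or without replicate 2 of NOCIA 34d, and none was called without replicate 2 of NOCIA baseline or replicate 1 of NOCIA 34d. With only these 2 groups fitted, 14 members were called, Psmb8, Psmb9, Psmb10 and Psme2 among them, and 33.8% of all probe sets. Without the 4 arrays that stood apart, all of them from other groups, 15 were called, Psmb9, Psmb10 and Psme2 among them, and 30.4% of all probe sets. Replicate 1 of NOCIA 34d, which lay farther out than 1 of those 4, was kept in that fit.

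Markers of other cell types moved in the same comparison, in which 5.66% of all probe sets were called lower. Both 34d arrays lay below both baseline arrays for 34.3% of all probe sets. Of 8 B cell genes, 7 fell, and their mean level, each gene centred on its mean over all arrays, was 0.83 and 0.87 at baseline and -0.70 and -0.65 at 34d. For 11 NK and cytotoxic genes the same level was 0.41 and 0.31 at baseline and -1.16 and -0.80 at 34d, with 2 called lower and all 11 without overlap. The 7 liver genes tested, 4 of which fell, were at 1.91 and 2.08 at NOCIA baseline and at -0.72 and -1.00 at 34d. The 3' minus 5' difference of Actb, a sign of RNA quality, was 0.56 and 0.84 at NOCIA baseline and 0.65 and 0.64 at 34d. The part of these cells, of liver RNA and of RNA quality in the proteasome values was not tested.

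**Figure D2:**
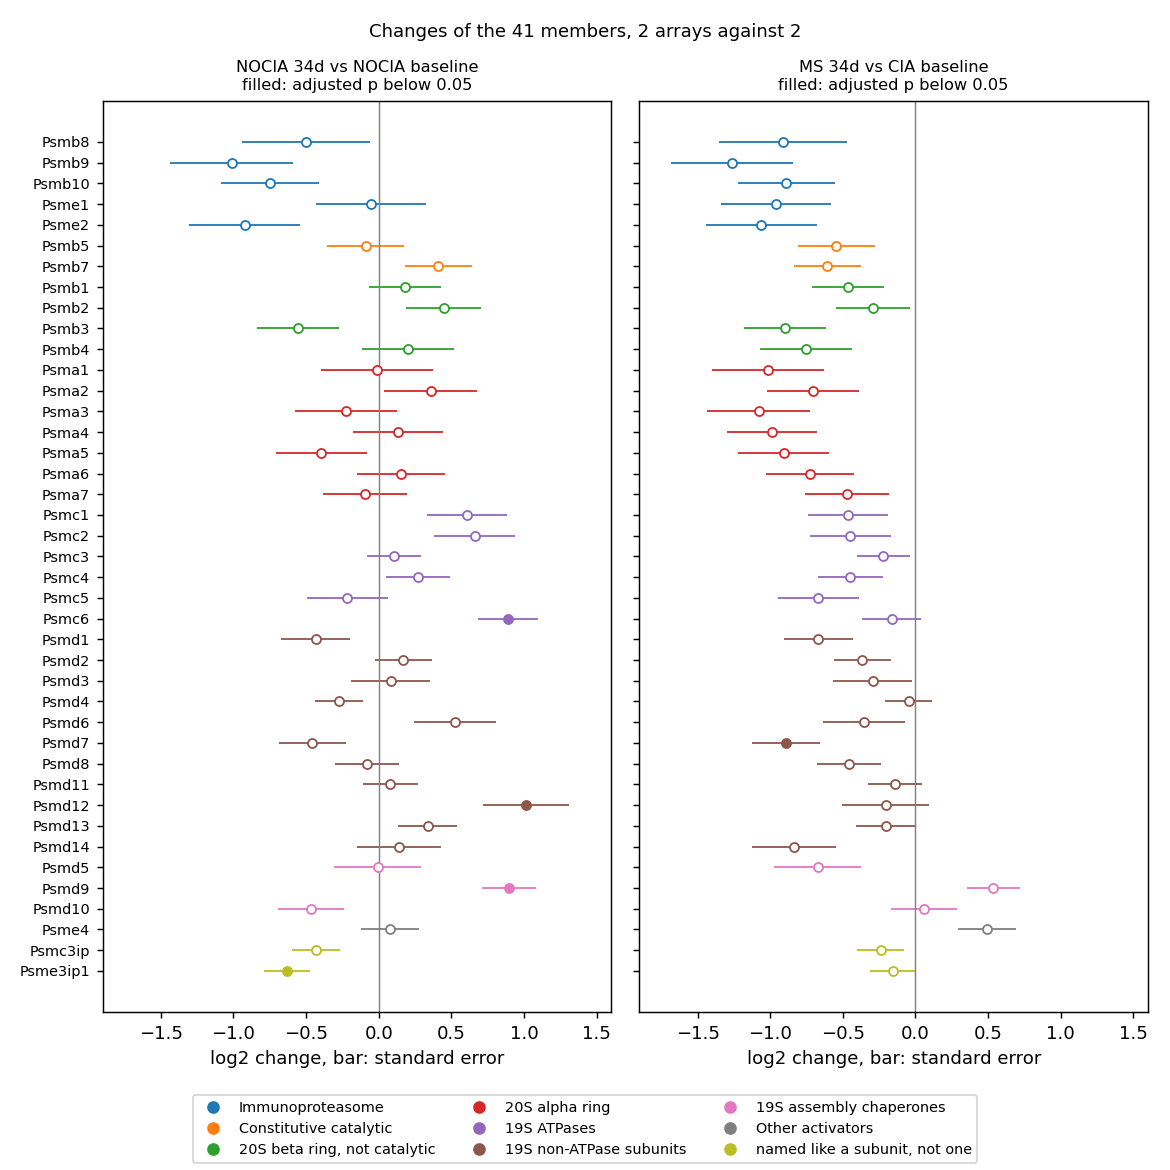
Log2 change with its standard error for each of the 41 members, by role, in NOCIA 34d against NOCIA baseline (left) and in MS 34d against CIA baseline (right), 2 arrays against 2, filled where the adjusted p was under 0.05. On the left 3 members are called higher and 1 lower and the immunoproteasome lies between -1.01 and -0.05, and on the right 1 member is called and 38 of 41 are below 0.

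At 34 days of needle stimulation in arthritic rats, most members lay below CIA baseline, and this rested mainly on 1 of the 2 rats. Of 41 members, 38 had a change below 0 and 1, Psmd7, fell. The median change of the 41 was -0.47, against -0.16 over all probe sets tested, and after quantile normalization 32 were below 0, with medians of -0.36 and -0.05. All 5 immunoproteasome genes were between -1.26 and -0.89, and none was called. Psmd9 and Psme4 were the 2 members above baseline with an unadjusted p under 0.05, and neither passed the adjustment. The alpha ring had a median of -0.91 and the immunoproteasome of -0.96.

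Psmd7, a non-ATPase subunit of the 19S lid, was 8.82 and 8.87 at CIA baseline and 7.59 and 8.32 at MS 34d. Both MS 34d arrays were lower, and the gene fell by 0.89 (SE 0.23, adjusted p = 0.0425 in limma). Its second, dimmer probe set gave -0.65 (SE 0.32, adjusted p = 0.152 in limma) and was not called. Psmd7 was not called without replicate 1 or without either CIA baseline array. The count of members called lower, 1 of 41, stood against 5.44% of all probe sets, and the count called higher, 0, against 1.52%, where 6.96% were called in all. With an unadjusted p under 0.05, 18 members were lower and 2 higher, against 23.6% and 13.5% of all probe sets, 37.1% in all.

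Psmb9 was 10.43 and 10.86 at CIA baseline and 8.80 and 9.97 at MS 34d, a change of -1.26 (SE 0.42, adjusted p = 0.065 in limma). Psme2 was 10.67 and 11.00 at baseline and 9.23 and 10.32 at 34d (-1.06, SE 0.38, adjusted p = 0.0736). Psme1 was 12.58 and 12.76 against 11.01 and 12.40 (-0.96, SE 0.38, adjusted p = 0.0892). In these 3 genes both MS 34d arrays lay below both baseline arrays, with replicate 1 far lower than replicate 2.

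Psmb10 was 10.19 and 10.42 at baseline and 8.85 and 9.98 at 34d (-0.89, SE 0.34, adjusted p = 0.0832 in limma). Psmb8 was 11.19 and 11.43 at baseline and 9.54 and 11.26 at 34d (-0.91, SE 0.44, adjusted p = 0.142 in limma), and here replicate 2 lay between the baseline arrays. The arrays did not overlap for 4 of the 5 genes, where 38.4% of all probe sets were lower in this way. Psmb5 was 10.82 and 10.98 against 9.94 and 10.77 (-0.55, SE 0.26, adjusted p = 0.144 in limma) and Psmb7 was 8.56 and 8.62 against 7.63 and 8.34 (-0.61, SE 0.23, adjusted p = 0.085 in limma), so the constitutive counterparts were lower as well.

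By role, the 7 alpha subunits ran from -1.08 for Psma3 to -0.47 for Psma7, and 6 of the 7 had an unadjusted p under 0.05. The 4 beta subunits without a catalytic site ran from -0.90 for Psmb3 to -0.29 for Psmb2, and the 6 ATPases from -0.67 for Psmc5 to -0.17 for Psmc6. The 11 non-ATPase subunits had a median of -0.35 and were all below 0, up to -0.05 for Psmd4. The chaperones were split, with Psmd5 at -0.67 (SE 0.30, adjusted p = 0.12 in limma) and Psmd9 at 0.54 (SE 0.19, adjusted p = 0.0679). Psme4, the activator PA200, was 9.40 and 9.34 at baseline and 10.00 and 9.73 at 34d (0.49, SE 0.20, adjusted p = 0.0957 in limma). Psmc3ip and Psme3ip1 were at -0.24 and -0.16.

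**Figure D3:**
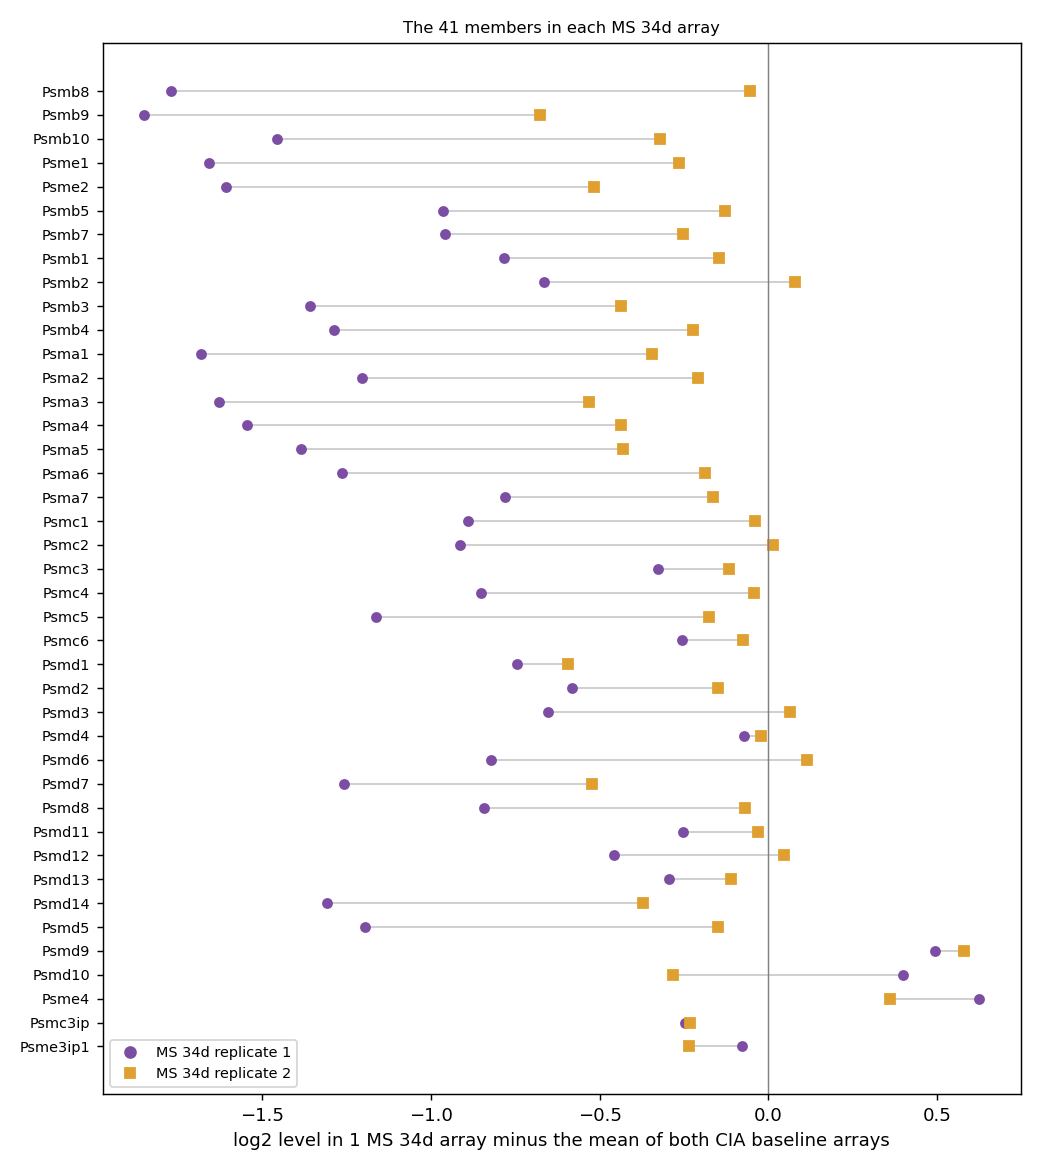
Log2 level of each of the 41 members in replicate 1 (circle) and replicate 2 (square) of MS 34d, minus the mean of both CIA baseline arrays. Replicate 1 is lower than replicate 2 in 38 members, and its median difference from baseline is -0.89 against -0.16 for replicate 2.

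Each MS 34d array was set against the CIA baseline mean. In replicate 1 the median over the members was -0.89, with -1.66 for the immunoproteasome and -0.83 for the others, and in replicate 2 it was -0.16, with -0.32 and -0.15. Replicate 1 was the lowest of all 24 arrays in 29 of the 41 members. Without replicate 1 no member was called, nor any other probe set. Without replicate 2, 28 members were called, 27 of them lower and all 5 immunoproteasome genes among them, with 48.1% of all probe sets.

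The same rat stood out in its cell markers. The mean centred level of 18 platelet genes was 1.45 in replicate 1 of MS 34d and 0.52 in replicate 2, against -0.47 and -0.70 at CIA baseline. For 17 T cell genes it was -1.36 and -0.12 against 0.43 and 0.47, and for 11 NK and cytotoxic genes -1.42 and -0.51 against 0.48 and 0.55. Monocyte genes were at -1.19 and 0.04 against 0.16 and 0.24. The 3' minus 5' difference of Actb was 0.36 in both MS 34d arrays and 0.54 and 0.59 at CIA baseline. The part of these cells and of RNA quality in the proteasome values was not tested.

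Set against the other arms at the same time, MS 34d had none of 41 members called against PLA 34d, where 0% of all probe sets were called. With an unadjusted p under 0.05, 1 member was higher and 16 were lower, against 23.2% of all probe sets. Psmb9 was 10.66 and 10.56 at PLA 34d, and its change was -1.22 (SE 0.42, adjusted p = 0.179 in limma). Psmb10, at 10.50 and 10.34 in PLA 34d, changed by -1.01 (SE 0.34, adjusted p = 0.179 in limma), Psme2 by -1.02, Psme1 by -0.94, Psmb8 by -0.93, Psmb5 by -0.60 and Psmb7 by -0.47, none of them called. Without replicate 2 of MS 34d, 28 members and 39.2% of all probe sets were called here, and without replicate 1 no member and 0%. Against MTX 34d, no member and 0% of all probe sets were called, and 0 members were higher and 2 lower at an unadjusted p under 0.05, against 14.4%, while 24 members and 34.7% of all probe sets were called without replicate 2 of MS 34d.

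The immunoproteasome was then set against the rest in each array, as the mean of the 5 genes minus the mean of the 36 others, each gene centred on its mean over all arrays. The group means (± SD, n = 2) ran from 0.31 ± 0.0033 at NOCIA baseline down to -0.46 ± 0.49 at MS 34d. NOCIA 34d came next to last with -0.43 ± 0.21, and its arrays, at -0.58 and -0.28, both lay below every array other than replicate 1 of MS 34d, at -0.81. The remaining groups lay between -0.13 ± 0.11 (PLA 1h) and 0.17 ± 0.03 (PLA 34d), where MTX 1h was at 0.16 ± 0.09, ANE 34d at 0.15 ± 0.10, ANE 1h at 0.12 ± 0.18, CIA baseline at 0.10 ± 0.16, NOCIA 1h at 0.09 ± 0.37, MS 1h at -0.02 ± 0.32 and MTX 34d at -0.07 ± 0.08. The arrays of neighbouring groups in this order overlapped, except that NOCIA baseline lay above PLA 34d and PLA 1h above NOCIA 34d.

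The difference changed by -0.74 from NOCIA baseline to NOCIA 34d (pooled SD 0.15), made of -0.65 in the immunoproteasome and 0.09 in the others. From CIA baseline to MS 34d it changed by -0.56 (pooled SD 0.37), made of -1.02 and -0.45, so both sets were lower there. Without replicate 1 of MS 34d that change was -0.22. CIA baseline was below NOCIA baseline by 0.21, with the arrays apart. From CIA baseline to PLA 1h the difference changed by -0.23, also with the arrays apart. MTX 34d was lower than PLA 34d by 0.24 with the arrays apart, and MS 34d lower than PLA 34d by 0.63, or by 0.28 without replicate 1 of MS 34d. At 1h the arrays left after the 4 that stood apart were at 0.20 in MS, -0.01 in ANE and -0.05 in PLA, and those left out at -0.25, 0.25 and -0.21.

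**Figure D4:**
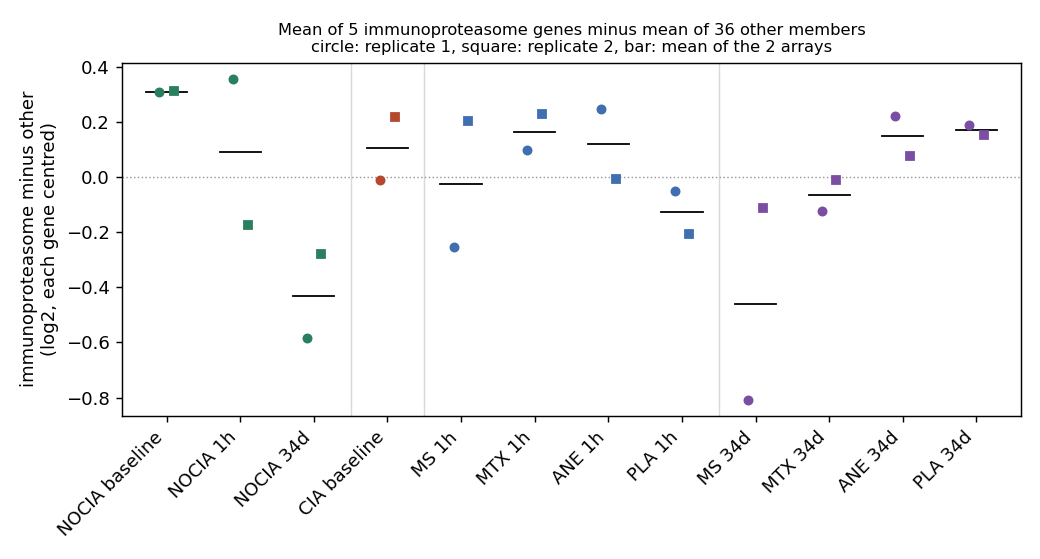
Mean centred log2 level of the 5 immunoproteasome genes minus that of the 36 other members in each of the 24 arrays (circle, replicate 1; square, replicate 2; bar, mean of the 2 arrays). Both NOCIA 34d arrays (-0.58 and -0.28) lie below both NOCIA baseline arrays (0.31 each), while the MS 34d arrays are at -0.81 and -0.11.

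The transcripts of catalytic subunits were compared within each array. The value was the centred level of an immunoproteasome gene minus that of its constitutive counterpart. Exchange of the subunits in the proteasome itself was not measured. For Psmb10 minus Psmb7 it was 0.47 and 0.27 at NOCIA baseline and -1.00 and -0.58 at NOCIA 34d, the lowest pair of the 12 groups, with -0.44 and -0.01 at MS 34d. For Psmb8 minus Psmb5 it was 0.28 and 0.48 at NOCIA baseline and -0.24 and 0.19 at NOCIA 34d, with -0.72 and 0.16 at MS 34d. In both pairs the NOCIA 34d arrays lay below both baseline arrays. Psmb9 has no counterpart here because Psmb6 is not a member.

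Arthritis itself and the first hour of each therapy showed no called member. Between CIA baseline and NOCIA baseline 0 of 41 were called and none had an unadjusted p under 0.05, against 0.00483% and 3.81% of all probe sets. Psmb9 was 10.43 and 10.86 in CIA and 10.89 and 10.87 in NOCIA, which gave -0.23 (SE 0.42), and Psmb10, Psmb8, Psme2 and Psme1 gave -0.13, -0.16, -0.13 and 0.14. The 95% interval of the Psmb9 difference ran from -1.12 to 0.66. At 1h no member was called in MS, MTX, ANE, PLA or NOCIA against its own baseline, where 0.00967%, 0.0145%, 0.0338%, 0% and 0.00483% of all probe sets were. At an unadjusted p under 0.05 there were 0 members higher and 2 lower in MS 1h (8.30% of all probe sets), none in MTX 1h (1.24%), 1 and 1 in ANE 1h (10.8%), 1 and 1 in PLA 1h (6.89%) and 1 and 0 in NOCIA 1h (3.57%). Without the 4 arrays that stood apart no member was called in MS 1h, ANE 1h or PLA 1h either. More members lay below than above CIA baseline in MS 1h (38 of 41), ANE 1h (33) and PLA 1h (36), or 33, 26 and 31 after quantile normalization. In MTX 1h it was 15, or 30 after quantile normalization, and all these comparisons share the CIA baseline arrays.

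Among the 1h groups, MS 1h and NOCIA 1h had the largest median difference between their 2 arrays over the members. In MS 1h Psmb8 was 10.17 and 11.34 and Psme1 11.70 and 12.80, and the members' median difference between replicate 1 and replicate 2 was -0.75. Without replicate 2 of MS 1h, 4 members were called lower against CIA baseline, Psma3, Psma7, Psmd12 and Psmd14, where 18.8% of all probe sets were called. In NOCIA 1h Psmb9 was 11.28 and 10.02, with replicate 1 the highest of the 24 arrays, and the same median was 0.40. The pooled SD within groups ran from 0.36 to 0.48 over the immunoproteasome genes, around a median of 0.41, and from 0.11 to 0.41 over the other members, around 0.26.

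In the other arthritic arms at 34 days no member was called against CIA baseline, although most lay below it in MTX and ANE. Below 0 were 34 of 41 members in MTX 34d, 35 in ANE 34d and 25 in PLA 34d, or 28, 28 and 17 after quantile normalization. Their medians were -0.12, -0.14 and -0.02, and those of the immunoproteasome -0.32, -0.09 and -0.02, against -0.01, -0.04 and -0.02 over all probe sets. No member was called in MTX 34d, ANE 34d or PLA 34d, where 0% of all probe sets were called in each, and none had an unadjusted p under 0.05, against 5.85%, 1.48% and 4.85% of all probe sets. Psmb9 changed by -0.44 in MTX 34d, -0.09 in ANE 34d and -0.04 in PLA 34d (SE 0.42 each), and Psmb10 by -0.18, 0.03 and 0.12 (SE 0.34 each). MTX 34d against PLA 34d gave no called member with 0% of all probe sets called, and none at an unadjusted p under 0.05, against 0.739%. There Psmb9 was 10.11 and 10.31 in MTX 34d, below both PLA 34d arrays, a change of -0.40 (SE 0.42).

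The 34-day change of each arm was tested against that of NOCIA. Psmc6 was the only member called, in ANE, where its change from CIA baseline was lower than that in NOCIA by 1.28 (SE 0.29, adjusted p = 0.0312 in limma). It was 8.50 and 8.60 at CIA baseline and 7.98 and 8.36 at ANE 34d, so both ANE 34d arrays lay below baseline while both NOCIA 34d arrays lay above theirs. In this test 2.86% of all probe sets were called, and at an unadjusted p under 0.05 there were 1 member higher and 4 lower, against 15.8%. The call of Psmc6 was lost without any 1 of the 8 arrays in this test other than replicate 2 of ANE 34d. For MS, MTX and PLA no member was called, against 0.0338%, 0.0242% and 0.00967% of all probe sets. At an unadjusted p under 0.05, 0 members were higher and 10 lower for MS (19.9%), 0 and 3 for MTX (7.50%) and 1 and 3 for PLA (9.80%). Without replicate 2 of MS 34d, 20 members, Psme1 the 1 immunoproteasome gene among them, and 29.5% of all probe sets were called for MS. No immunoproteasome gene was called in these 4 tests. With array weights Psmb9, Psmb10 and Psme2 were called higher in ANE (with 23.4% of all probe sets called) and in PLA (16.4%), and with only the groups compared the same 3 genes were called in ANE (20.8%) and PLA (14.5%). For Psmb9 the differences were -0.25 in MS, 0.57 in MTX, 0.93 in ANE and 0.97 in PLA, with an unadjusted p of 0.679, 0.35, 0.139 and 0.122 in limma.

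Genes around the proteasome were read from lists. Of all probe sets, 6.31% were called higher and 5.66% lower at NOCIA 34d, and 1.52% higher and 5.44% lower in MS 34d. The counts below stand against these shares. Of 15 genes of proteasome assembly and regulation, 2 rose and 1 fell at NOCIA 34d. Akirin2, which brings proteasomes into the nucleus, was 7.73 and 7.48 at baseline and 8.99 and 8.79 at 34d and rose by 1.29 (SE 0.26, adjusted p = 0.00464 in limma). Usp14, a deubiquitinase of the 19S cap, rose by 0.92 (SE 0.22, adjusted p = 0.0112). Psmg2, an assembly chaperone of the alpha ring, was 8.20 and 8.08 at baseline and 7.28 and 7.15 at 34d and fell by 0.92 (SE 0.23, adjusted p = 0.0163 in limma). In MS 34d Psmg2 was also the 1 gene of this list that was called, lower by 1.07 (SE 0.23, adjusted p = 0.0298).

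Of 9 genes of MHC class I processing, which receives the peptides that proteasomes cut, none was called at NOCIA 34d, against 12% of all probe sets. The transporter gene Tap1 stood at -0.13 (SE 0.41) and Tap2 at -0.39 (SE 0.42), both adjacent to Psmb8 and Psmb9 in the MHC region. The 3 largest values there were -0.63 for Erap1, -0.49 for Canx and -0.49 for Nlrc5. In MS 34d 1 of the 9 fell, the peptide trimmer Erap1, by 1.20 (SE 0.31, adjusted p = 0.0415 in limma), against 5.44% of all probe sets.

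Of 10 genes of interferon gamma signalling, none was called at NOCIA 34d, against 12% of all probe sets. The 3 largest changes there were those of Ifngr2, Irf1 and Ifngr1, all higher. Ifngr2 was 9.36 and 9.38 at baseline and 10.97 and 10.58 at 34d, and Ifngr1 was 11.30 and 11.43 against 12.62 and 12.21. Irf1, a direct activator of immunoproteasome genes, was at 1.12 (SE 0.45, adjusted p = 0.131 in limma). Ifng itself was at 1.01 (SE 0.90). Irf2, Irf8, Jak1, Jak2 and Socs1 were lower on average. At NOCIA baseline Ifng was 5.01 and 4.99, below the array medians of 5.56 and 5.53. The part of these genes in the proteasome values was not tested. In MS 34d Irf2 fell by 0.90 (SE 0.25, adjusted p = 0.0472) and Ifng was at -0.85 (SE 0.90). Of 17 interferon-stimulated genes, Stat2 fell at NOCIA 34d by 1.22 (SE 0.28, adjusted p = 0.0102 in limma), where 5.66% of all probe sets were called lower. In MS 34d 3 of the 17 fell, Mx1 by 1.69, Parp14 by 1.27 and Stat2 by 1.11, against 5.44% of all probe sets. Of 8 genes of ubiquitin and substrate delivery, Ubqln1, which carries substrates to the proteasome, rose by 1.06 at NOCIA 34d (SE 0.27, adjusted p = 0.0194 in limma). Uba1, a ubiquitin-activating enzyme, fell there by 0.71 (SE 0.20, adjusted p = 0.0266 in limma). In that comparison 12% of all probe sets were called. None of the 8 was called in MS 34d, against 6.96% of all probe sets. The MS 34d calls of Psmg2, Erap1, Irf2, Mx1, Parp14 and Stat2 were all lost without replicate 1 of MS 34d.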

How the data were processed

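The values are on a log2 scale and were deposited by the authors, who used RMA of the affy package according to their processing notes. The sources used here do not give the versions. The study's methods also describe MAS5, but the values ran from 2.18 to 15.02 with array medians of 5.49 to 5.58 and were read as RMA levels. RMA brings the probe intensities of all arrays to one distribution, so a change in total RNA would not show, and precision is limited by the number of arrays. The deposited values of probe sets still differed in distribution between arrays, and a further quantile normalization moved some of the counts given above. Signal from the 3' end minus that from the 5' end was 0.01 to 0.20 for Gapdh and 0.36 to 0.84 for Actb.

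The platform annotation gave 1 gene symbol to 20826 of 31099 probe sets, several to 436 and none to 9837. After removal of 57 controls, a probe set stayed if at least 2 arrays had it above their 40th percentile (20690 probe sets). The 41 members had 55 probe sets and all matched RefSeq by gene ID. limma 3.58.1 in R 4.3.3 fitted 1 mean for each of 12 groups (lmFit, then eBayes, 12 residual degrees of freedom), from which came 14 comparisons and, for each of 4 arms, a test of its 34-day change against that of NOCIA. All arms share the arrays of CIA baseline. The fit was tested on simulated data.

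Named genes were the immunoproteasome genes with Psmb5 and Psmb7, every called member, the highest and lowest of each subunit role, and called genes of the other lists or the 3 largest. Tap1, Tap2, Ifng, Irf1, Psmc1 and Psmc2 were chosen after their values were seen. The members, lists and tests were chosen with earlier results of these data known. Alternatives were a replicate block, only the groups compared, no filter or the 60th percentile, array weights, all probe sets of a gene, quantile normalization, robust eBayes with a trend and leaving out each array. A fit without the 4 arrays that stood apart was chosen after seeing the data.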

Additional observations from a re-analysis of the deposited data

Results flagged for a closer look

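The 34-day change of Psmc6, an ATPase of the 19S cap, differed between ANE and NOCIA, by -1.28 (SE 0.29, adjusted p = 0.0312 in limma). It rose by 0.89 in NOCIA and changed by -0.38 in ANE, where both 34d arrays were below both baseline arrays. The same difference was -1.06 for MS, -0.96 for MTX and -1.10 for PLA, none of them called, and all 4 tests share the NOCIA arrays. The 34-day change of Usp14, the deubiquitinase of the 19S cap, also differed between ANE and NOCIA, by -1.27 (SE 0.30, adjusted p = 0.038 in limma). In this test 2.86% of all probe sets were called. The call of Psmc6 was lost without most single arrays, and the dependence of the Usp14 call on single arrays is not given here.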

How the results depend on the processing

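Under the alternatives, 950 of 1142 values were labelled the same. Changes of genes had to keep their direction and their side of the threshold, and immunoproteasome differences to stay within the spread between arrays. Counts of called members had to be equal or close. Such counts made up 197 of the 950, and many of them were 0 under both settings. The count of members called in NOCIA 34d against baseline, 4, was 18 with array weights, 15 without the 4 arrays that stood apart, 14 with only the groups compared and 0 to 1 without single arrays. In MS 34d against CIA baseline, 1 became 0 under each of these 3 settings and 0 to 28 without single arrays. Without single arrays, counts of 0 ran from 0 to 4 in MS 1h, 0 to 28 in MS 34d against PLA 34d, 0 to 24 against MTX 34d and 0 to 20 in the change of MS minus that of NOCIA. The change of ANE minus that of NOCIA had 1 member called, 3 after quantile normalization, 11 with array weights, 6 without the 4 arrays, 9 with only the groups compared and 0 to 1 without single arrays. With array weights, without the 4 arrays and with only the groups compared, the counts of 0 became 4, 2 and 2 for MTX minus NOCIA and 6, 2 and 5 for PLA minus NOCIA. The change of the immunoproteasome difference in NOCIA, -0.74, was -0.90 with medians over members.

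Signs turned for small changes. With all probe sets of a gene averaged, Psme1, Psmd7 and Psme4 were at 0.034, 0.00437 and -0.048 in NOCIA 34d, and Psmb5 at 0.043 in MS 34d. After quantile normalization, Psme4 was at -0.027 in NOCIA 34d, and Psmc6, Psmd4 and Psme3ip1 at 0.081, 0.076 and 0.053 in MS 34d. Without single arrays Psme4 ran from -0.049 to 0.20 in NOCIA 34d, and in MS 34d Psmb2 ran from -0.66 to 0.081 and Psmd4 from -0.13 to 0.034. Psmb2 was at 0.081 without the 4 arrays. The causes were not tested, beyond the fewer arrays that some settings use.

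Replicate numbers did not pair samples of the same rat, since each rat was killed at sampling. The deviations of same-numbered arrays from their group means correlated at -0.23 to 0.51 between the groups compared. These correlations cannot show whether same-numbered arrays shared a batch. The fit with a replicate block called 4 members in NOCIA 34d and 1 in MS 34d and changed none of the 81 calls and directions it was run on.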
